A study of Mus musculus with 11 samples.

Results

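Days 3 and 4 of an induced reprogramming course were compared with days 5 and 6 of the same course, using 4 of the 11 small RNA libraries of the study. The cells were secondary mouse embryonic fibroblasts (MEF) with a doxycycline-inducible cassette for OKSM (Oct4, Klf4, Sox2 and Myc), the factors that turn somatic cells into pluripotent ones. All 4 libraries come from the Mbd3f/- line, in which 1 allele of the NuRD subunit gene Mbd3 is floxed and the other is absent, so the genotype is shared by the earlier and the later window and nothing here compares it with wild type. Cells were induced in serum and LIF medium at 5% oxygen, and the medium was then changed to knockout serum replacement and LIF with 2i, a pair of inhibitors of MEK and GSK3. The series design places that change on day 3.5, between the days 3 and 4 used here, and the growth protocol places it 48 hours after induction, before both. From day 3 to day 8 the cells grew on irradiated human foreskin fibroblasts (feeders), which all 4 libraries share. The libraries for MEF, the established induced pluripotent stem cell (iPSC) line and the embryonic stem cell (ESC) line are used below only to place a level. The labels call the ESC library Mbd3f/-, whereas its column carries the name of the V6.5 ESC line.

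Each day is 1 library, so neighbouring days stand in for repeats and a window holds 2 libraries that also differ by time. Values are FPKM, fragment counts normalised to transcript length and library depth. A transcript was called higher when its day 5 and day 6 values both lay above its day 3 and day 4 values, and lower in the opposite case, both as deposited and after rescaling the 4 libraries by median ratios. Differences are days 5-6 minus days 3-4 on log2(FPKM + 10), which understates the differences of low transcripts. The exact permutation test of 2 against 2 libraries cannot give a p below 0.333. Low FPKM values came in whole steps, and 91.9% of 4669 of them were whole reads within 0.05 of a read, so reads could be recovered for most transcripts. The worth of a read was itself set from low values with such steps, so the 91.9% is not an outside check. Reads recovered in the table numbered 9231926, 9926125, 5863504 and 6549561 on days 3, 4, 5 and 6, and 94.1% to 96.2% of them belonged to miRNA transcripts. A single read of an 80-nucleotide transcript was worth 29.5, 31.5, 46.0 and 39.2 FPKM in the same order, so days 5 and 6 are the less precise pair at low levels.

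MicroRNAs (miRNAs) are RNAs of about the length of a short oligo that are cut from hairpins and pair with messenger RNAs mainly through their seed, bases 2 to 8. Hairpins often lie in clusters that are transcribed together, and miRNAs of different clusters can share a seed. Fibroblasts are known for miR-21, miR-199a and miR-143 and miR-145. Mouse pluripotent cells are known for 2 clusters, miR-290 and miR-302, and epithelial cells for the miR-200 family, which restrains the transcription factors Zeb1 and Zeb2. The let-7 family accumulates with differentiation and opposes Lin28, and the miR-10 and miR-196 hairpins lie inside the Hox gene clusters. Small nucleolar RNAs (snoRNAs) guide the methylation (C/D box) or pseudouridylation (H/ACA box) of ribosomal RNA.

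The mature sequences below are those on which the comparison turns, from RefSeq on GRCm38.p6, written 5′ to 3′ with the seed in capitals. RefSeq's table matched 435 of the 901 miRNA transcripts tested. The files give 1 value for a hairpin and do not say which arm was read, so the arm shown is background. The first set holds the seed AAGUGCU, found in the miR-290 cluster and again in miR-302, whose 5 matched transcripts were all higher on days 5-6.
mmu-miR-291a-3p: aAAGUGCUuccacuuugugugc
mmu-miR-294-3p: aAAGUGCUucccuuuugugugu
mmu-miR-295-3p: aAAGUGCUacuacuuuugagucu
mmu-miR-302b-3p: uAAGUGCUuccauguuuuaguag
mmu-miR-302d-3p: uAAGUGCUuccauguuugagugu
The next set is the miR-200 family, which has the seeds AAUACUG and AACACUG, and all 5 matched transcripts of these seeds were higher.
mmu-miR-200b-3p: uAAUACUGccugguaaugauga
mmu-miR-200c-3p: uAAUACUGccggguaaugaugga
mmu-miR-200a-3p: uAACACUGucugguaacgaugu
mmu-miR-141-3p: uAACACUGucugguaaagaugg
The miR-183 cluster holds Mir183, the most abundant miRNA that was higher. Its hairpins have seeds that are alike and not the same.
mmu-miR-183-5p: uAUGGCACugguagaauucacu
mmu-miR-96-5p: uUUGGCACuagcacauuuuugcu
mmu-miR-182-5p: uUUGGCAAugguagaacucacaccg
Among higher transcripts with a mean of at least 1000 FPKM over days 3 to 6, Mir431 aside, the largest differences were those of X-linked hairpins and, after them, miR-211, which share no seed among those shown here.
mmu-miR-470-5p: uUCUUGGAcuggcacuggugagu
mmu-miR-871-5p: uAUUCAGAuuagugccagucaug
mmu-miR-881-3p: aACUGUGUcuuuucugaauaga
mmu-miR-211-5p: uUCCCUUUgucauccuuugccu
Among the miRNAs that were lower, whole seed groups were lower together: ACCCUGU (2 of 2 transcripts), ACCCGUA (3 of 3), CCCUGAG (4 of 4) and UCAAGUA (3 of 3). The last 2 groups hold hairpins with the same mature form (miR-125b and miR-26a), which are not separate observations.
mmu-miR-10a-5p: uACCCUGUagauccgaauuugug
mmu-miR-10b-5p: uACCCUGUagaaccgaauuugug
mmu-miR-99b-5p: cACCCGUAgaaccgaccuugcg
mmu-miR-100-5p: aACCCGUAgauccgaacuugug
mmu-miR-125a-5p: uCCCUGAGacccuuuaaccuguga
mmu-miR-125b-5p: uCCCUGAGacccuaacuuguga
mmu-miR-351-5p: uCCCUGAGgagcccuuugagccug
mmu-miR-26a-5p: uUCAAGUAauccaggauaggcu
mmu-let-7i-5p: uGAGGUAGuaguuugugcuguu
mmu-let-7d-5p: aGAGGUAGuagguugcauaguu
A last set shares the seed AUUGCAC, which matched 7 transcripts: Mir92b and both miR-92a hairpins were lower (-2.51, -0.40 and -0.36), Mir32 was higher (0.60), and Mir25, Mir363 and Mir367 were called in neither direction.
mmu-miR-92b-3p: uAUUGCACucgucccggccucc
mmu-miR-92a-3p: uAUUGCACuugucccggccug
mmu-miR-25-3p: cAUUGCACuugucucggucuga
mmu-miR-363-3p: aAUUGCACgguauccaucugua

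Of the 3859 transcripts in the table, 1419 had a mean of at least 10 FPKM over the 11 libraries. By the non-overlap rule 259 of them were higher on days 5-6 (18.3%), 314 were lower (22.1%) and 846 were neither, so that 40.4% were called in 1 direction or the other. Of all possible orders of 4 values, a share of 0.333 meets the rule in 1 direction or the other, and the 40.4% has to be read beside it. The lower set included abundant fibroblast, Hox and let-7 miRNAs, and the higher set the abundant miR-290 and miR-183 clusters and the X-linked testis miRNAs. No transcript passed limma's adjusted p of 0.05, where the smallest was 0.242, and 152 had an unadjusted p under 0.05 (10.7%), 48 of them higher and 104 lower. The counts above therefore describe order and not a tested change, and every "higher" or "lower" below means this order over 4 libraries. Of the 258 higher transcripts left when Mir431 is set aside, 164 differed by more between windows than between the days inside either window (63.6%), and of the 314 lower ones 253 did (80.6%). The difference was at least 1 on the log2 scale in 162 transcripts each way (11.4% each). Neighbouring hairpins are not independent, and the 259 higher transcripts lay in 138 loci, against 271 loci for the 314 lower ones, where a locus joins transcripts of the same strand within 10 kb.

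**Figure D1:**
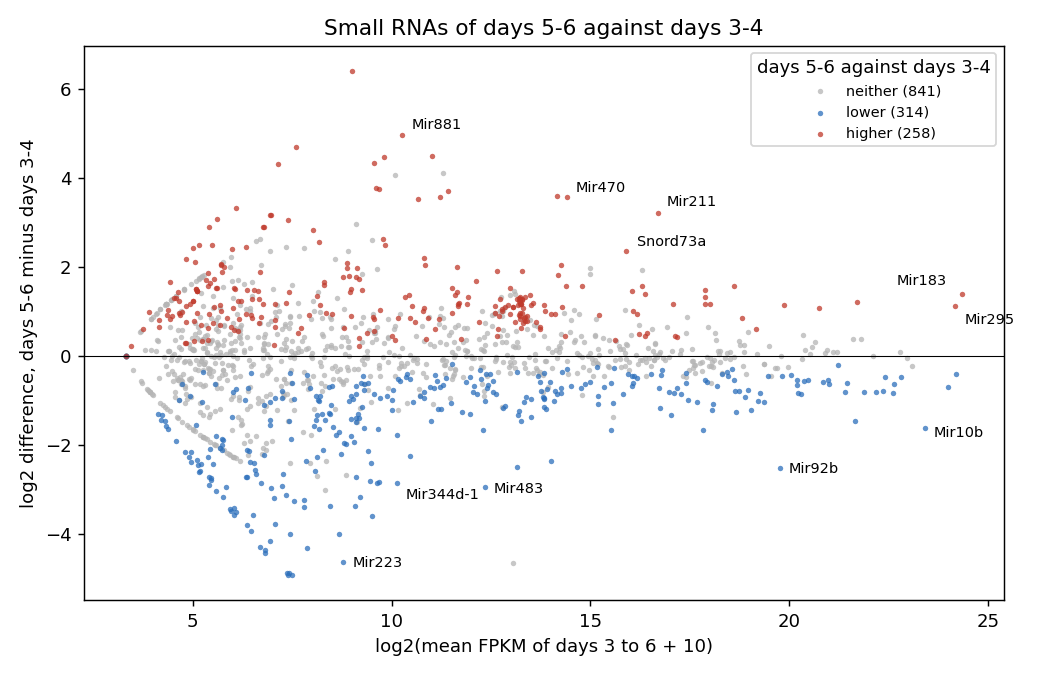
Each point is a transcript, with log2 of its mean FPKM of days 3 to 6 plus 10 on the x axis and its log2 difference, days 5-6 minus days 3-4, on the y axis; red, blue and grey mark transcripts called higher, lower and neither, and 6 transcripts listed at 0 in 1 library and at 10000 FPKM or more in another are left out. At the highest levels Mir183 and Mir295 were higher and Mir92-1 was lower, and Mir211, Mir470 and Snord73a stand above the others at their level.

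By type of RNA, of 901 miRNA transcripts 162 were higher (18%) and 273 lower (30.3%), and of the 518 others 97 were higher (18.7%) and 41 lower (7.92%). Among 408 snoRNAs 90 were higher and 25 lower, with a median difference of 0.32, while the median over the miRNA transcripts was -0.17 and over all transcripts 0.00. FPKM are shares of a library, so the levels of its RNAs are not independent. In these mixed cultures fewer cells of a type and less RNA per cell cannot be told apart.

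The order rule for the calls did not use the MEF, iPSC and ESC libraries, but the filter on the mean over the 11 libraries did. Their direction is given for each set as a description and not as outside support for the calls. Each linked copy counts in it: of the 72 tested Sfmbt2 hairpins described below, 71 lay above MEF in both lines. Both lines lay above MEF in 192 of the 259 higher transcripts (74.1%), in 101 of the 314 lower ones (32.2%) and in 773 of all 1419 (54.5%). Both lines lay below MEF in 10.4% of the higher, 42.0% of the lower and 22.3% of all transcripts.

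**Figure D2:**
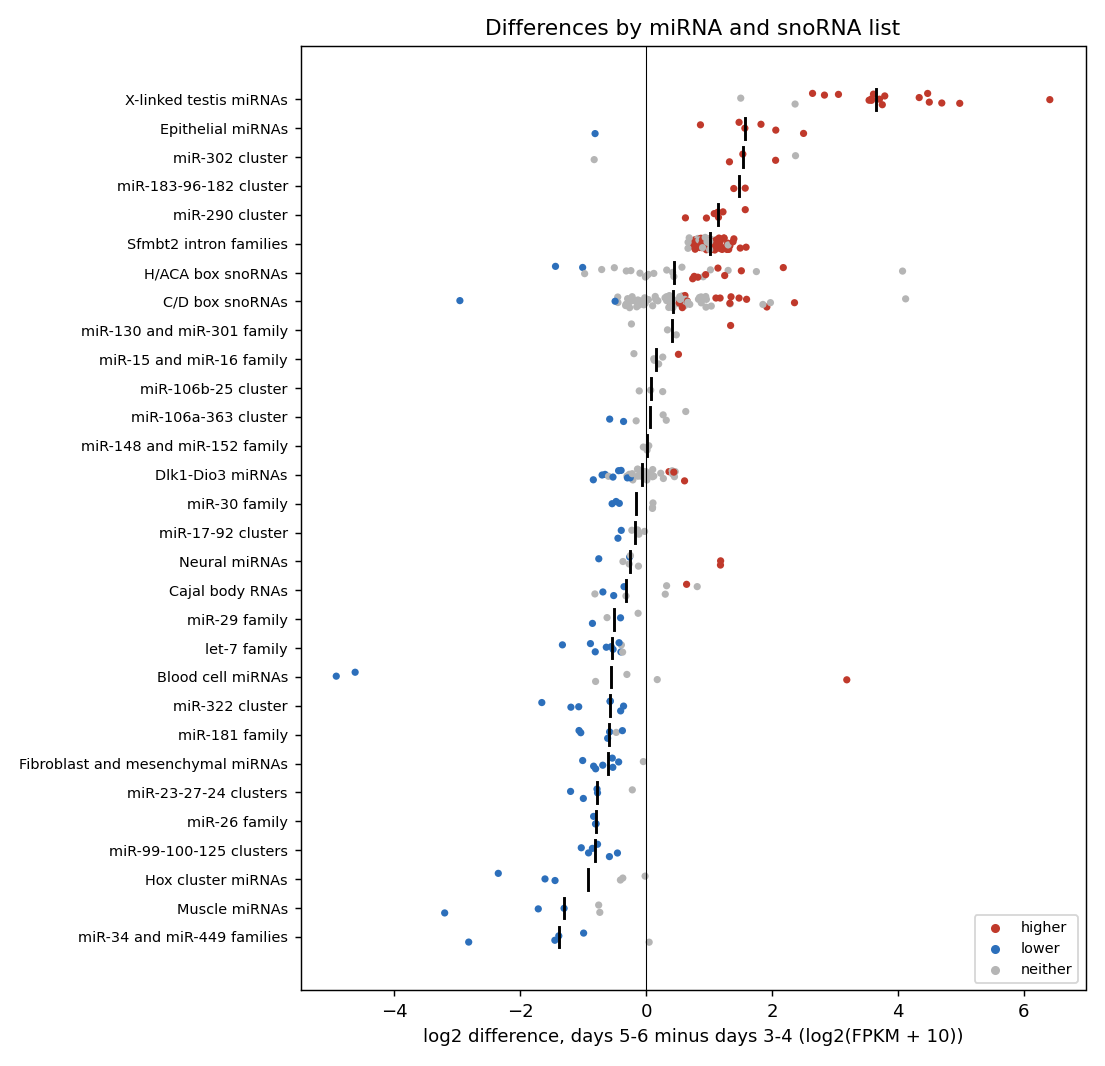
Each point is a transcript of a list, placed by its log2 difference, days 5-6 minus days 3-4, and coloured by its call (red higher, blue lower, grey neither); the black bar is the list's median, and lists with at least 3 tested members are shown, without the same 6 transcripts. X-linked testis miRNAs have the highest median (3.66) and the miR-34 and miR-449 families the lowest (-1.39).

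The X-linked testis miRNAs are a rodent-specific run of hairpins known for its expression in male germ cells. They lie on the minus strand in 2 neighbouring loci, chrX:66776757-66814025 with 13 tested transcripts and chrX:66825955-66839125 with the miR-465 copies. Of 18 members 16 were higher and none lower, with a median difference of 3.66. Mir470, the most abundant, had 2024, 3906, 17967 and 63254 FPKM on days 3, 4, 5 and 6, which came from 57, 103, 325 and 1342 reads. Its difference was 3.58 ± 0.87 (SE; limma adjusted p = 0.373). Mir871 had 1582, 3132, 13442 and 55421 FPKM, and its difference was 3.61. In both, each day was higher than the day before, and day 6 alone was more than 3 times day 5.

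Other hairpins of the run started from a few reads. Mir881 gave 2, 1, 16 and 95 reads on days 3 to 6, and its FPKM of 63.5, 33.9, 791 and 4005 differed by 4.98. Mir878 had 222, 475, 2473 and 7715 FPKM with a difference of 3.71. Mir463 had 178, 265, 1548 and 4478 FPKM, and Mir743b had 98.9, 633, 1334 and 7436 FPKM. Mir741 gave 1, 2 and 5 reads on days 3 to 5 and 141 reads on day 6, so its mean difference of 4.50 rests mostly on that last day. Mir471 and Mir743 were listed at 0 on days 3 and 4 and gave 24 and 8 reads on day 6, which allows no fold. Of the miR-465 hairpins, 4 matched the seed AUUUAGA and 4, not all the same ones, the seed AUCAGGG, and all of them were higher, but near-identical copies may share reads. Only Mir883b and Mir742 were called in neither direction, and they gave at most 8 reads in any of the 4 libraries. All 18 members lay above MEF in both lines, with Mir470 at 4871230 FPKM in iPSC and 251903 in ESC. Shares of reads, here and below, leave out the 6 transcripts listed at 0 in 1 library and at 10000 FPKM or more in another. Those 6 held 631745, 678022, 924298 and 211658 of the recovered reads on days 3, 4, 5 and 6, so the base of a share differs by day. By reads the run made up 0.0016%, 0.0028%, 0.0158% and 0.058% on days 3 to 6, so it was a small part of the small RNA even on day 6.

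**Figure D3:**
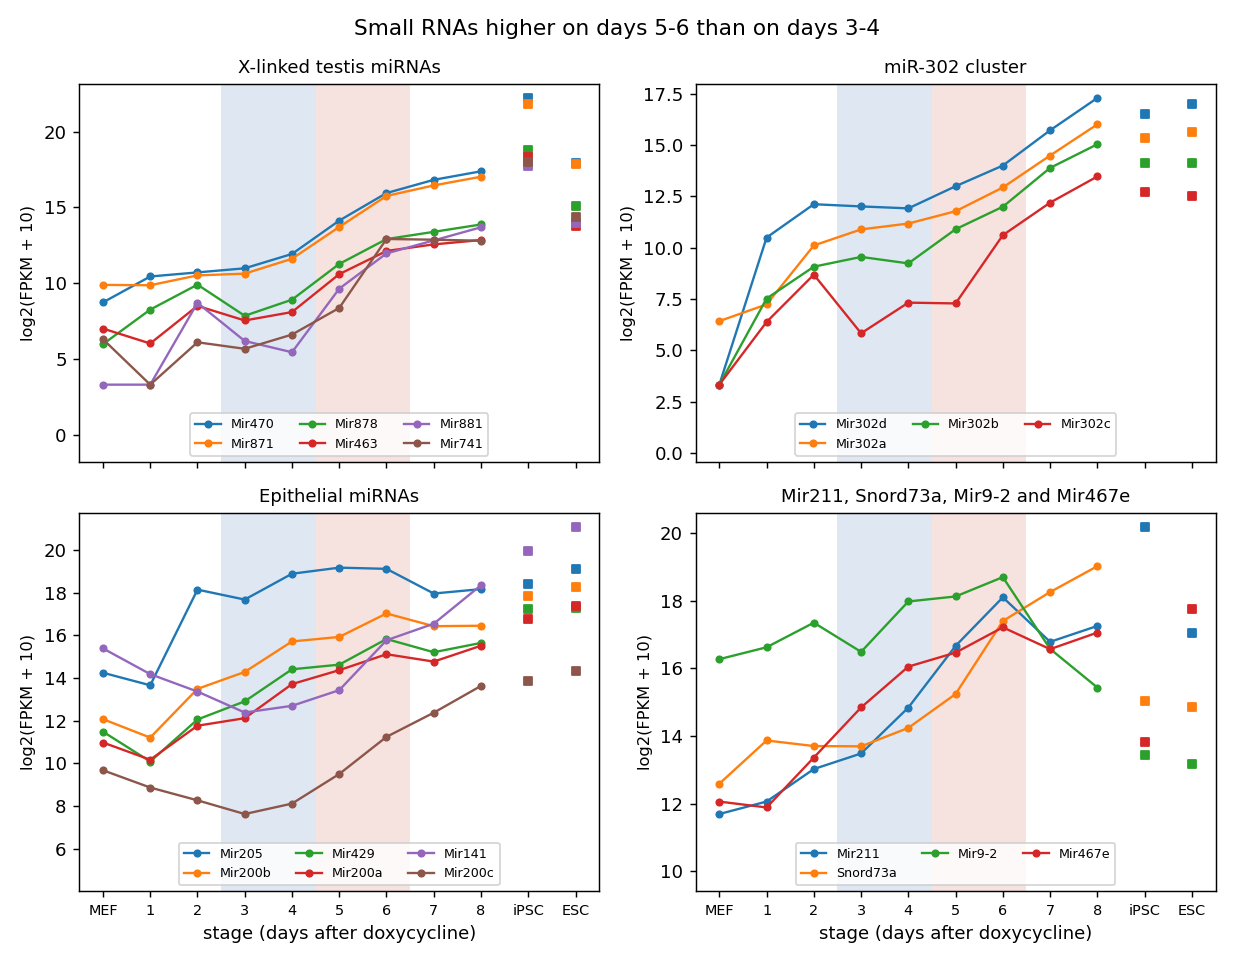
Each panel gives log2(FPKM + 10) by stage for single libraries: circles joined by lines for MEF and days 1 to 8, squares for the iPSC and ESC lines, with days 3-4 shaded blue and days 5-6 shaded red. Mir470 goes from 2024 FPKM on day 3 to 63254 on day 6 and Mir302d from 4106 to 16350, while Mir205 differs mainly between day 3 and the other days shown in the shaded windows.

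The miR-290 cluster at chr7:3218626-3220841, the main miRNA cluster of mouse pluripotent cells, was higher in 7 of 7 members with a median difference of 1.14. Mir295 had 8752670, 15028700, 19715500 and 32211000 FPKM on days 3, 4, 5 and 6, and its difference was 1.14 ± 0.48 (SE; limma adjusted p = 0.513). Its windows did not overlap, but day 4 was also well above day 3. Mir292 had 1282100, 3051370, 3947900 and 5372130 FPKM, a difference of 1.22, and here days 3 and 4 differed by 1.25 among themselves. Mir291a had 465825, 734845, 1044130 and 1609440 FPKM, and its gap between windows was the widest of the cluster. Mir294 had 120791, 283167, 357565 and 846974 FPKM, with the cluster's largest difference, 1.57. Mir291b, the least abundant member, showed the smallest difference, 0.62. Without Mir182 and the other transcripts with a 0, the cluster's share of the reads was 3.38%, 5.47%, 9.12% and 13.2% on days 3 to 6. In 5 of the 7 members the difference between windows was larger than the difference between days inside either window. Mir295 was listed at 0 in the iPSC and ESC libraries, whereas the other 6 members lay above MEF in both.

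The miR-302 cluster at chr3:127545228-127545807, which shares its seed with miR-290 and is prominent in primed pluripotent cells, was higher in 3 of 5 members and lower in none. Mir302d had 4106, 3844, 8128 and 16350 FPKM on days 3 to 6, a difference of 1.53. Mir302a had 1884, 2299, 3491 and 7798 FPKM, a difference of 1.32, and Mir302b had 738, 591, 1895 and 4063 FPKM, a difference of 2.06 ± 0.51 (SE; limma adjusted p = 0.389). Unlike 6 of the 7 miR-290 members, Mir302d and Mir302b were not higher on day 4 than on day 3, and within days 3 to 6 went up only from day 5 on. Both had gone up earlier in the course, from 0 in MEF to 4424 and 528 FPKM on day 2. Mir302c gave 1, 3, 2 and 25 reads and Mir367 gave 6, 1, 0 and 7 reads, so neither could be ordered at this depth. The cluster stayed small, at 0.0077% of the reads on day 6 against 13.2% for miR-290.

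The miR-183 cluster, known from sensory organs and epithelia, held the most abundant miRNA that was higher. Mir183 had 7241120, 17506100, 24045400 and 36247800 FPKM on days 3, 4, 5 and 6, a difference of 1.39 ± 0.61 (SE; limma adjusted p = 0.517). Mir96 had 23964, 55001, 64716 and 180252 FPKM, a difference of 1.57. For both, day 3 was the lowest and day 6 the highest, and days 4 and 5 lay closer together than days 3 and 4. Mir182, the remaining hairpin of the cluster, had 8444330, 25722800 and 37508500 FPKM on days 3, 4 and 5 and is listed at 0 on day 6, on days 7 and 8 and in both lines. Mir182 is therefore given apart, with no difference. Mir183 and Mir96 together made up 1.98%, 4.16%, 7.32% and 10.2% of the reads.

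Epithelial miRNAs were higher in 6 of 7 members, with a median difference of 1.57, and lower in 1. Mir200b had 19940, 53660, 62116 and 133106 FPKM on days 3 to 6, a difference of 1.47. Its neighbours on chromosome 4 followed the same order: Mir429 had 7675, 21739, 25261 and 58060 FPKM and Mir200a had 4440, 13443, 21129 and 35445 FPKM. In all 3 most of the distance between windows comes from day 3 being low and day 6 being high. The chromosome 6 pair, Mir200c and Mir141, went another way, low on both earlier days. Before day 3 Mir141 had been higher, at 42811 FPKM in MEF and 10544 on day 2. Mir141 had 5338, 6636, 11039 and 55781 FPKM, a difference of 2.06, and Mir200c had 189, 268, 717 and 2419 FPKM, a difference of 2.50 (limma unadjusted p = 0.0489, adjusted p = 0.457). Mir200c gave only 4.2, 5.6, 10.3 and 40.6 reads. Mir205, a basal epithelial miRNA, had 208902, 483014, 588465 and 566055 FPKM, so that day 4 stood closer to days 5 and 6 than to day 3. Mir203, a miRNA of differentiating skin, was lower, with 1915, 2703, 1225 and 1362 FPKM and a difference of -0.81.

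The miR-297, miR-466, miR-467 and miR-669 hairpins, repeated many times in an intron of Sfmbt2 on chromosome 2, were higher in 56 of 72 tested members and lower in none, with a median difference of 1.01. Differences ranged narrowly, from 0.66 to 1.59. Mir467e, the most abundant, had 29353, 67860, 90419 and 151874 FPKM on days 3 to 6, a difference of 1.39 ± 0.62 (SE; limma adjusted p = 0.521). Mir669p-1, with the widest gap between windows, had 4375, 8529, 13010 and 19449 FPKM. Mir467d, called in neither direction, had 8376, 19954, 18132 and 35983 FPKM, where day 5 was below day 4. Of the 56 higher members 37 differed by more between windows than inside them. These hairpins are near-identical copies that can share reads, and 85 tested transcripts of this strand lie in 1 locus, chr2:10465287-10518279, so the 56 are not 56 separate observations. The share of the reads went from 0.132% on day 3 to 0.528% on day 6.

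Single transcripts outside these clusters also stood out. Mir211, in an intron of the melanocyte channel gene Trpm1, had 11414, 29300, 103752 and 280860 FPKM on days 3 to 6, a difference of 3.22 ± 0.84 (SE; limma adjusted p = 0.402), with 894, 2149, 5220 and 16574 reads behind it. Each day was more than 2 times the day before. Snord73a, a C/D box snoRNA in an intron of the ribosomal protein gene Rps3a1, had 13215, 19299, 38674 and 172858 FPKM, a difference of 2.36, and was 532237 FPKM on day 8 but only 33776 in the iPSC and 29628 in the ESC library. Gm25203, a transcript on chromosome 12, had 382, 931, 2052 and 3828 FPKM.

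Of 8 neural miRNAs 2 were higher and 2 lower, near the shares over all transcripts (18.3% and 22.1%). Mir9-2 had 91807, 258212, 286032 and 425230 FPKM on days 3 to 6, and Mir9-3, whose mature form is the same and whose reads cannot be separated, had 84261, 234233, 262746 and 386640 FPKM. Both differed by 1.18, less than the 1.49 and 1.47 that separate day 4 from day 3. The defining hairpins of miR-124 were in neither direction, among them Mir124a-1 at 7442, 10637, 8900 and 7494 FPKM. Mir137 was lower by 0.75, with 23.8 reads on day 3 but 8.84 on day 6. Within the miR-130 and miR-301 family Mir301b had 91683, 185900, 238920 and 457454 FPKM, a difference of 1.34, while Mir130b, Mir130a and Mir301 were in neither direction.

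C/D box snoRNAs were higher in 15 of 74 members and lower in 2, with a median difference of 0.42, and H/ACA box snoRNAs were higher in 8 of 29 and lower in 2, with a median of 0.44. Over all transcripts 18.3% were higher, and over all snoRNAs 90 of 408, with a median difference of 0.32. The higher share of the C/D box snoRNAs is near both. Whether the H/ACA box snoRNAs differ from the other snoRNAs was not tested. Snord118 (the U8 snoRNA, which acts in ribosomal RNA cleavage) had 1526, 3456, 4779 and 15825 FPKM. Snord64 had 7977, 4260, 14160 and 15172 FPKM. The most abundant member, Snord93, had 1732850, 1210990, 1666090 and 1974900 FPKM and was in neither direction, as day 3 was as high as day 5. Of the 9 Cajal body RNAs, which guide the modification of spliceosomal RNAs, 1 was higher and 3 lower, among them Scarna3a at 2290, 2649, 1536 and 1513 FPKM. Over all transcripts 22.1% were lower, and over those other than miRNA 7.92%. Of the 15 transcripts annotated as Cajal body RNAs, 0 were higher and 4 lower. The size selection of these libraries for short RNA limits what they say about snoRNAs, whose full length is longer than a miRNA.

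On the lower side, the largest difference among the lower transcripts with a mean of at least 1000 FPKM belonged to Mir483, which lies in an intron of the imprinted growth factor gene Igf2. Its values were 10501, 7776, 1551 and 865 FPKM on days 3, 4, 5 and 6, from 274, 190, 26 and 17 reads, and its difference was -2.95 ± 0.44 (SE; limma unadjusted p = 0.00698, adjusted p = 0.319). Each day was below the day before. Mir675, made from the neighbouring imprinted transcript H19, had 534, 327, 120 and 134 FPKM, a difference of -1.65, from at most 20.8 reads a library. Both had been far higher in MEF, at 120719 FPKM for Mir483 and 11519 for Mir675.

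Hox cluster miRNAs were lower in 3 of 6 members, beside 30.3% of all miRNA transcripts, and higher in none, with a median of -0.93. Mir10b, in introns of Hoxd3 and Hoxd4, had 17266700, 16391200, 6404850 and 4756430 FPKM on days 3 to 6, a difference of -1.61 ± 0.27 (SE; limma unadjusted p = 0.00987, adjusted p = 0.346). Mir10a, its close relative on chromosome 11, had 4408370, 5278070, 1627120 and 1920110 FPKM, a difference of -1.45. In both, the step between days 4 and 5 was far larger than the steps from day 3 to 4 or from day 5 to 6. Mir615, in an intron of Hoxc5, had 34316, 21435, 5529 and 5104 FPKM, a difference of -2.35 (limma unadjusted p = 0.00697). The 3 miR-196 hairpins, which also lie in Hox gene clusters, were in neither direction, with a median difference of -0.37. Among them Mir196b had 90777, 121491, 104763 and 102724 FPKM. The share of the reads held by the list went from 8.89% and 8.35% on days 3 and 4 to 3.73% and 3.29% on days 5 and 6.

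**Figure D4:**
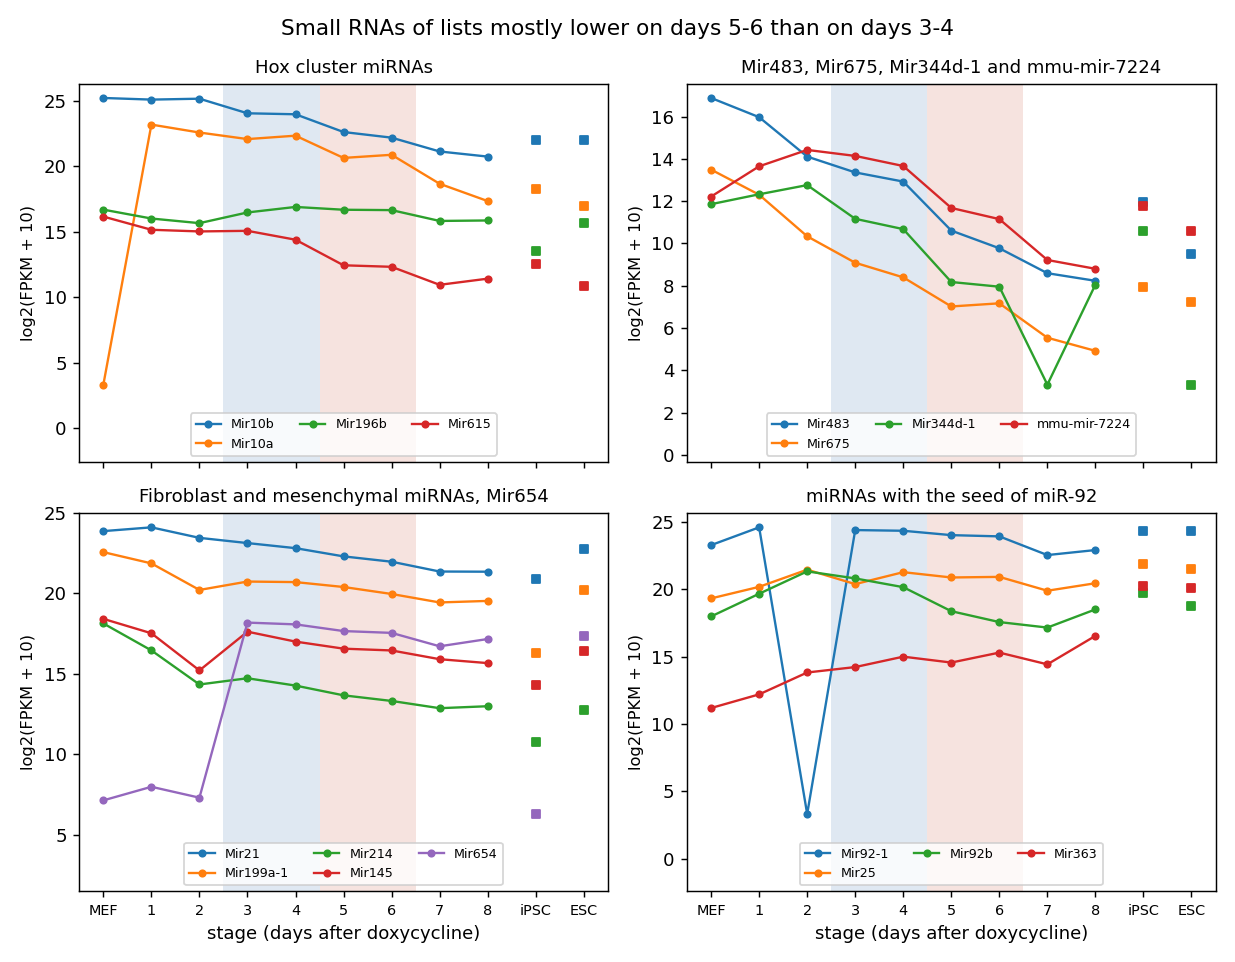
Each panel gives log2(FPKM + 10) by stage for single libraries: circles joined by lines for MEF and days 1 to 8, squares for the iPSC and ESC lines, with days 3-4 shaded blue and days 5-6 shaded red. Mir10b goes from 16391200 FPKM on day 4 to 6404850 on day 5 while Mir196b stays level; Mir10a in MEF and Mir92-1 on day 2 are listed at 0, outside the windows compared.

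Mir92b separated from the miRNAs that share its seed. It had 1850200, 1179190, 342325 and 195548 FPKM on days 3 to 6, a difference of -2.51 ± 0.47 (SE; limma unadjusted p = 0.0135, adjusted p = 0.349), from 69650 reads on day 3 and 5546 on day 6. Mir92-1, the miR-92a hairpin of the miR-17-92 cluster and the most abundant of the seed group, had 22286300, 21501400, 17167600 and 16109500 FPKM, a difference of -0.40, and its windows overlapped under quantile normalization. Mir25 had 1380980, 2552390, 1941920 and 2002840 FPKM, a difference of 0.07, and Mir363 had 19283, 32956, 24325 and 40630 FPKM. The windows of Mir25 and Mir363 overlapped. Whether the difference of Mir92b differs from that of the others was not tested.

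Fibroblast and mesenchymal miRNAs were lower in 7 of 8 members and higher in none, with a median difference of -0.61. Mir21 had 9188300, 7379770, 5176900 and 4113030 FPKM on days 3 to 6, a difference of -0.84 ± 0.28 (SE; limma adjusted p = 0.464). Mir143 had 19084900, 22448200, 14259000 and 11539500 FPKM, a difference of -0.69, and its neighbour Mir145 had 201314, 131231, 96802 and 89602 FPKM. Mir214, in the same transcript as the second miR-199a hairpin, had 27015, 19702, 12930 and 10150 FPKM and the list's largest difference, -1.01. Mir199a-1, Mir199a-2 and Mir199b, which share their mature forms or nearly so, differed by -0.54, -0.53 and -0.44. Mir152 was level at 126276, 111975, 116519 and 113890 FPKM. In all 7 the difference between windows was larger than that between days inside a window.

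The same markers are expressed by the human feeder fibroblasts, whose conserved miRNAs the table does not separate. Mir654, which was at 130 FPKM in MEF and far higher from day 3, the first day on feeders, had 297835, 275908, 206776 and 191171 FPKM, a difference of -0.53, close to the fibroblast median. Gm24899, which went up on the same day, had 29241, 3437, 9903 and 5951 FPKM and was in neither direction. The lines had been plated on feeders too, and Mir654 was at 67.5 FPKM in the iPSC library and 164921 in the ESC library. The part of feeder RNA in the lower fibroblast values was not tested. By reads the fibroblast list held 10.8%, 9.02%, 7.99% and 5.80% of the table.

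The let-7 family was lower in 8 of 10 members and higher in none, with a median of -0.54. Mirlet7a-1 and Mirlet7a-2 share a mature form, as do Mirlet7c-1 and Mirlet7c-2, so the 10 are not 10 separate observations. Mirlet7i, the most abundant, had 2910050, 4194590, 2317720 and 1714330 FPKM on days 3 to 6, a difference of -0.81. Mirlet7d had 192758, 189782, 77034 and 74997 FPKM, a difference of -1.33 ± 0.20 (SE; limma unadjusted p = 0.00745, adjusted p = 0.322), with both windows tight and far apart. In all other members day 4 was the highest of the 4 days. Mirlet7a-2 had 1312780, 1947960, 1251300 and 945906 FPKM, and Mirlet7c-2 had 418167, 723184, 421634 and 415000 FPKM and was in neither direction. Without the 6 transcripts with a 0, the let-7 reads were 5.26%, 6.63%, 5.16% and 3.81% of the reads. Days 3 and 5 are nearly the same on that base, which left out 631745 reads on day 3 and 924298 on day 5.

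The miR-99, miR-100 and miR-125 clusters, which are transcribed together with let-7 hairpins, were lower in 6 of 6 members, with a median of -0.81. Mir99b had 7617870, 5916680, 3601850 and 4283580 FPKM, a difference of -0.77 ± 0.27 (SE; limma adjusted p = 0.48). Mir125b-1 had 1319410, 545793, 451897 and 381253 FPKM, where the distance between days 3 and 4 was larger than the difference between windows. Mir99a had 299411, 299656, 204715 and 194879 FPKM, with both windows tight. As a share of reads these clusters held 3.82% on day 3 and 2.32%, 1.99% and 2.02% afterwards, so day 3 stood apart.

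**Figure D5:**
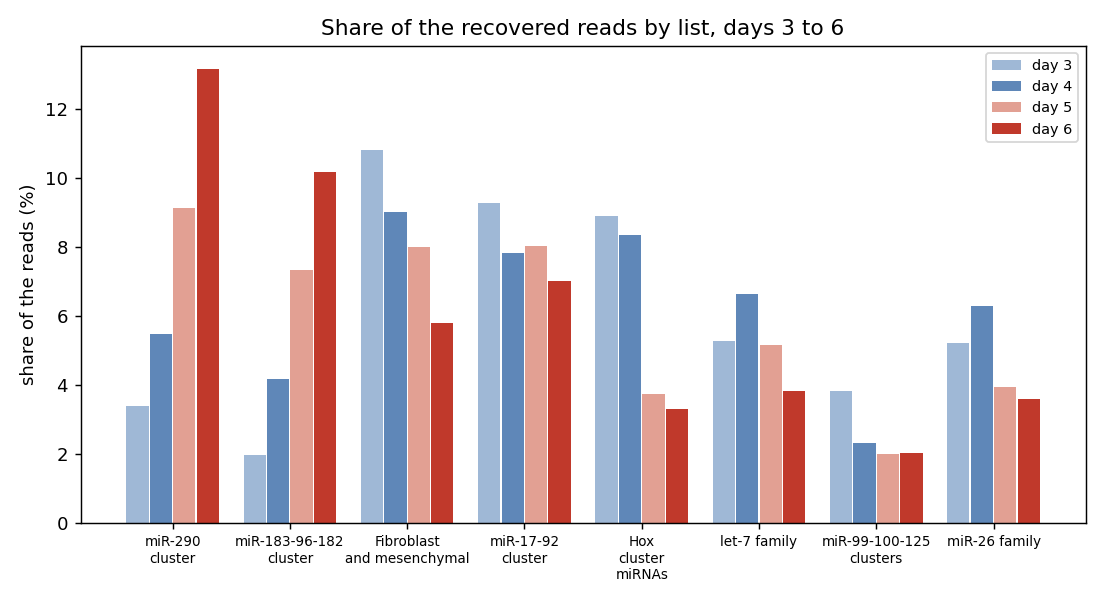
Bars give the share of the recovered reads in percent held by 8 lists in the single libraries of days 3, 4, 5 and 6, without the 6 transcripts listed at 0 in 1 library and at 10000 FPKM or more in another. The miR-290 bars go from 3.38% to 13.2% and the Hox bars from 8.89% to 3.29%, and the let-7 bar of day 5 (5.16%) stands near that of day 3 (5.26%).

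The X-linked miR-322 cluster at chrX:53047997-53054349, the rodent counterpart of the miR-424 and miR-503 cluster that restrains the cell cycle, was lower in 7 of 7 members, with a median of -0.57. The 2 miR-450a hairpins among them share a mature form and are not separate observations. Mir351, the cluster's most abundant hairpin, had 562329, 170088, 103163 and 93030 FPKM on days 3 to 6. Its difference of -1.66 is no larger than the 1.73 by which day 4 was below day 3. Mir322 had 57678, 44198, 21616 and 26662 FPKM, a difference of -1.07, and Mir503 had 3231, 3450, 1161 and 1814 FPKM, a difference of -1.20, from 78, 78, 18 and 33 reads. Mir351 also carries the seed of miR-125, and the 4 matched transcripts of that seed were all lower.

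The miR-34 and miR-449 families, known as targets of p53 and as miRNAs of ciliated epithelia, were lower in 4 of 5 members with a median of -1.39. Mir34b had 13287, 15313, 5351 and 5073 FPKM, a difference of -1.45 ± 0.22 (SE; limma unadjusted p = 0.00748, adjusted p = 0.322), and Mir34c of the same transcript had 246542, 230311, 111845 and 127901 FPKM. In both, the 2 days of a window were nearly the same. Mir34a, encoded on another chromosome with the same seed, had 81053, 132868, 85538 and 134318 FPKM, so its windows overlapped and its difference was 0.05. Mir449a and Mir449c were lower by 1.39 and 2.82, with 8 and 6 reads on day 5.

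In the miR-26, miR-181, miR-23-27-24 and miR-29 lists some members were lower and none higher, beside 30.3% of all miRNA transcripts lower. The miR-26 family was lower in 3 of 3 members, with Mir26a-2 at 5036550, 7055810, 3387080 and 3480540 FPKM and a difference of -0.80. The paralogous Mir26a-1 gave 196070 reads on day 3 beside 196348 for Mir26a-2, and the 2 share a mature form, so they are 1 observation. The miR-181 family was lower in 5 of 6 members, with Mir181a-2 at 3723610, 3181930, 2644770 and 1916390 FPKM (not called when scaled on miRNA transcripts alone) and Mir181b-1 at 357624, 388068, 225394 and 140213 FPKM. Mir181a-1 and Mir181a-2 share a mature form, as do Mir181b-1 and Mir181b-2, so the 5 are not 5 separate observations. The miR-23, miR-27 and miR-24 clusters were lower in 4 of 5 members. Mir23a had 812366, 703337, 332093 and 325227 FPKM, a difference of -1.20 ± 0.22 (SE; limma unadjusted p = 0.0124, adjusted p = 0.349), while Mir27b, the most abundant, had 7980730, 11091200, 6822400 and 9550760 FPKM and was in neither direction. Mir29a had 246483, 166058, 112169 and 111646 FPKM, and 2 of 4 members of its family were lower.

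Among the other transcripts with the widest gaps on the lower side were Mir344d-1, with 2287, 1628, 279 and 238 FPKM on days 3 to 6, and mmu-mir-7224, in an intron of B3galt1, with 18047, 12965, 3269 and 2265 FPKM. The difference of Mir344d-1 was -2.86 ± 0.30 (SE; limma unadjusted p = 0.0026, adjusted p = 0.246), from 51, 34, 4 and 4 reads. Mir201 had 1774, 2815, 789 and 269 FPKM, and Mir3968 had 1114, 2401, 499 and 449 FPKM. No role is given here for these 4.

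Markers of muscle, blood and endothelium were also looked at, since MEF cultures can hold such cells. Muscle miRNAs were lower in 3 of 5 tested members, beside 30.3% of all miRNA transcripts. The most abundant, Mir1a-1, gave 35, 16, 10 and 10 reads and was called in neither direction, as its windows overlapped after rescaling. In the blood list 2 of 6 were lower and 1 higher, near the shares over all miRNA transcripts (30.3% lower and 18% higher). Mir223, a myeloid miRNA, gave 123, 23.9, 1 and 1 reads and Mir511 gave 17, 5, 0 and 0 reads, both from high values in MEF (24400 and 12072 FPKM). Mir451, an erythroid miRNA, was higher on 0, 1, 4 and 3 reads, too few to order. Mir142, present in all blood cells, had 27448, 9510, 5752 and 14870 FPKM and was in neither direction. The endothelial Mir126 had 25064, 54470, 26364 and 41202 FPKM.

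Other families were little separated. The miR-17-92 cluster, a driver of proliferation and a target of Myc, was lower in 2 of 6 members, Mir92-1 and Mir18, and higher in none, with a median of -0.18. Mir17 had 249064, 230714, 191087 and 248734 FPKM and Mir20a had 133818, 125132, 108294 and 149031 FPKM, with overlapping windows. Its paralogous clusters miR-106a-363 and miR-106b-25 gave 2 of 6 and 0 of 3 lower members. Over all miRNA transcripts 30.3% were lower, so 2 of 6 is near that share. The 6 matched transcripts with the seed AAAGUGC (miR-17, miR-20a, miR-20b, miR-93, miR-106a and miR-106b) were all in neither direction, whereas the 5 with AAGUGCU were all higher. The difference between these seed groups was not tested. The miR-15 and miR-16 family had 1 of 6 higher, Mir497, with at most 94 reads in a library. In the miR-30 family 3 of 6 members were lower, with Mir30a at 6382780, 6558110, 4798740 and 4492220 FPKM, and Mir30e was in neither direction. The miR-148 and miR-152 family and miR-221 and miR-222 had no member in either direction: Mir148a, for instance, had 3363320, 5815100, 4386760 and 4541700 FPKM.

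The imprinted Dlk1-Dio3 cluster on chromosome 12, whose maternally expressed miRNAs are a marker of fully competent mouse iPSC lines, was not separated as a whole. Of 43 tested members 4 were higher and 8 lower, beside 18% higher and 30.3% lower over all miRNA transcripts. The median was -0.07 without the members listed at 0. Mir541, its most abundant member with no 0, had 5469390, 8659760, 7583750 and 7167250 FPKM, and Mir410 had 1083360, 1921790, 1570070 and 1413390 FPKM. In both, day 3 was the lowest and the later days lay inside the range of the earlier ones. Mir154 was higher at 5233, 5150, 7587 and 8273 FPKM, though not under quantile normalization, and Mir667 was lower at 27135, 19780, 16433 and 10182 FPKM. Mir127, Mir136, Mir433, Mir434 and Mir431 were listed at 0 on day 4 between high values on days 3 and 5, as for Mir127 with 13621700 FPKM on day 3 and 13193100 on day 5. They are listed apart with no difference, and Mir431 is counted among the 259 higher transcripts with its day 4 at 0. The same 5 hairpins were listed at 0 in MEF.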

How the data were processed

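Small RNA was sequenced from 1 library a stage with the TruSeq small RNA kit after gel size selection and 12 PCR cycles, per the labels' protocols. The authors deposited FPKM values per transcript. Tools listed, without their roles, in the submitters' processing notes are Cufflinks 2.2.1, Bowtie2 2 and CASAVA 1.8.2, with the build mm10. For annotation, filters and reads with several matches the step is not given in the sources used here.

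Transcripts with a mean of at least 10 FPKM were kept (1419 of 3859) and differences taken on log2(FPKM + 10). The median-ratio factors of days 3 to 6 were 0.954, 1.11, 0.965 and 1.07. limma 3.58.1 (R 4.3.3) was fitted to the 4 libraries over all 1419 transcripts, with empirical Bayes and Benjamini-Hochberg adjustment (2 residual degrees of freedom), two-sided, and checked on simulated data. Its p-values measure the scatter of neighbouring days and not of cultures. Positions come from GENCODE release 21 for mouse (GRCm38), by gene identifier (3712 of 3859 matched).

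The comparison and the 34 lists were chosen with earlier results of these data known. Transcripts named were, at a mean of at least 1000 FPKM over days 3 to 6, the 10 higher and 10 lower with the widest gap between windows; in each list the most abundant member and the called one with the widest gap; the 10 most abundant; and Mir654 and Gm24899. Other list members named were chosen after their values were seen, and so were the seed groups. A transcript is listed apart when 1 of the 4 libraries is at 0 and another at 10000 FPKM or more (6 transcripts). Alternatives were other scalings, pseudocounts 1 and 100, other filters, miRNA transcripts alone and leaving out each day.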

Additional observations from a re-analysis of the deposited data

How the results depend on the processing

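The higher and lower counts of 259 and 314 became 265 and 332 as deposited, 294 and 328 under median ratios alone, 287 and 314 under quantile normalization (222 and 278 of them also called under the main scaling), 179 and 245 with a mean of at least 100 FPKM and 272 and 341 with no filter. They were 165 and 247 in miRNA transcripts alone, 162 and 162 with a difference of at least 1, and 117 and 179 with at least 100 recovered reads, a setting chosen after seeing the data. Leaving out 1 day gave 353 to 508 higher and 438 to 533 lower, since fewer values have to be in order; 258 of the 259 higher and 306 of the 314 lower were called in every such set. The 0 transcripts of limma became 7 with a pseudocount of 1, 19 with no filter and 1 with days 1 to 8 in 4 windows, and stayed 0 under median ratios, quantile normalization, a pseudocount of 100, a mean of at least 100 FPKM, miRNA transcripts alone and without any 1 of the 4 days. Under quantile normalization Mir30a, Mir186, Mir154 and Mir92-1 were no longer called, with their direction kept. Of 70 named transcripts 50 kept direction and call in every setting. Of the transcripts called in neither direction, 8 turned when 1 day was left out, with values from -0.37 to 0.51 for Mir25, -0.38 to 0.41 for Mir148a, -0.72 to 0.39 for Mir126, -0.57 to 0.47 for Gm23212, -1.02 to 0.53 for Snora41, -0.94 to 2.56 for Scarna17, -1.93 to 1.16 for Gm24899 and -1.81 to 1.87 for Snord116l1. The median of the 2 Prader-Willi snoRNAs that the list holds, 0.50, turned to -0.020 with a pseudocount of 100. These 2 do not stand for their locus. That of Snord116l1, chr7:59859214-59904848, held 17 tested transcripts, 2 higher and 1 lower. Its neighbour, chr7:59673461-59807088, held 46, with 14 higher and 2 lower, beside 18.3% higher and 22.1% lower over all transcripts. Depth limits 112 of the higher and 130 of the lower transcripts, which had under 100 reads over the 4 libraries. No paired analysis was possible because each stage is 1 library and the labels number no replicates.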

Other observations

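Another X-linked group that no list of the report holds, the hairpins of miR-188, miR-362, miR-500, miR-501 and miR-532, was lower in 5 of 5 tested members, with a median difference of -0.92. It was chosen after its values were seen.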
